A study of Homo sapiens with 6 samples.

Results

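The complement system was followed here through 9 genes, chosen by name with earlier results of these data known. They were the components C3, C1R, C1S and CFB, the receptor C5AR2, the membrane regulators CD46, CD55 and CD59, and the plasma regulator SERPING1. All 9 had a row among the 67026 genes of the table. They were measured in xenografts of PC-3, an androgen-independent line derived from a human prostate cancer metastasis. A lentiviral hairpin in the cells targeted either VCAN, which encodes the matrix proteoglycan versican (shVCAN), or GFP as a control (shGFP), and both kinds of cells were selected with puromycin at 2 µg/mL. Each group had 3 numbered tumours, grown from cells injected in Matrigel and PBS under the skin of NSG mice (NOD.Cg-Prkdcscid Il2rgtm1Wjl/SzJ, males of 4 to 5 weeks) over 4 weeks. NSG mice lack T, B and NK cells but keep macrophages and neutrophils, and the NOD background lacks C5, so that these hosts have no haemolytic complement. The comparison asks whether complement transcripts differ when versican is knocked down.

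Complement is a cascade of plasma and cell-surface proteins. In the classical pathway, C1q bound to a target activates the proteases C1r and C1s. In the alternative pathway, factor B (CFB) joins cleaved C3 to form an enzyme that cleaves more C3. Both routes lead to cleavage of C5, whose fragment C5a binds the receptors C5AR1 and C5AR2, and to a membrane pore. Tumour cells, like most nucleated cells, carry CD46, CD55 and CD59, which inactivate C3b and C4b, break up the C3-cleaving enzymes and block the pore, respectively. The C1 inhibitor, encoded by SERPING1, inactivates C1r and C1s.

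The sequences before the RefSeq start sites are shown for the receptor with the largest difference (C5AR2) and for 2 membrane regulators that were not called (CD46 and CD59). Each is the 250 bases upstream of the first RefSeq start listed, on GRCh38.p14, written 5′ to 3′ on the strand of the gene. They lie at chr19:47331925-47332174 (plus strand, C5AR2), chr1:207751788-207752037 (plus strand, CD46) and chr11:33736480-33736729 (minus strand, CD59). Capitals mark matches on either strand to the AP-1 motif TGANTCA, the SP1 box GGGCGG and the TATA box TATAAA, which do not overlap each other here.
C5AR2: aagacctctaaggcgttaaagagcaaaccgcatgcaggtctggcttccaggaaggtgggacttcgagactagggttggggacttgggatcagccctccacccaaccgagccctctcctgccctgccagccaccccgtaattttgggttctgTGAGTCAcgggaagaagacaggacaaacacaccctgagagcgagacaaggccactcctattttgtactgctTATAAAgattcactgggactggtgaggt
CD46: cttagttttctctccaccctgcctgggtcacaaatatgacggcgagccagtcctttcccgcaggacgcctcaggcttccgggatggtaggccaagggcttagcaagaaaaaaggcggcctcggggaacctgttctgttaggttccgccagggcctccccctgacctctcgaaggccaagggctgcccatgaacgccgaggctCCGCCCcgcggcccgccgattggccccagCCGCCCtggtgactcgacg
CD59: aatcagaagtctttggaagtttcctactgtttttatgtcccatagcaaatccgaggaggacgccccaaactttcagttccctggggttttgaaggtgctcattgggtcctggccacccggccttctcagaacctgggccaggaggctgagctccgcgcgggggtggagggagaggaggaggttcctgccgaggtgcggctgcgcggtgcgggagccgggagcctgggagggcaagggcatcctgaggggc

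The C5AR2 window held 1 AP-1 match, 99 to 93 bases before the start, and 1 TATA box, 28 to 23 bases before it. The GENCODE 29 transcript of C5AR2 starts at 47332147, which is the first base of that TATA match. Among the 27305 RefSeq promoter windows of the same length, 6.60% held the AP-1 motif, 11.1% the TATA box and 42.3% the SP1 box. CD46 held 2 SP1 boxes, both on the minus strand, and the CD59 window matched none of the 3 motifs. The C5AR2 window had a GC content of 54.4%, against 64.8% for CD46 and 62.0% for CD59. The CD55 window is not shown, because it lies wholly within the CD55 gene of GENCODE 29 (207321376 to 207386804). It held 1 SP1 box on the minus strand, 46 to 41 bases before the start, although CD55 fell. The CFB window, of a gene listed at 0, held 1 TATA box, 30 to 25 bases before the start. The C1R window matched none of the 3 motifs. The matches describe the letters of these windows and were not tied to any binding. RefSeq windows were matched for 6 of the 9 members. C3, C1S and SERPING1 had no entry.

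Values are normalised read counts (CPM, on library sizes scaled by edgeR's TMM method), given as mean ± SD of 3 tumours. A negative log2 fold change means lower in shVCAN, and SE is its standard error. A gene rose or fell at a Benjamini-Hochberg adjusted p under 0.05 in the edgeR quasi-likelihood test over 16254 genes. Libraries held 11253058 to 13327617 counts. The targeted gene VCAN had 133, 104 and 121 counts in shGFP tumours 1, 2 and 3 and 69, 39 and 44 in the shVCAN tumours (log2 fold change −1.535, SE 0.207, adjusted p = 4.59e-07). Mitochondrial messenger RNAs took 13.3% to 16.2% of all counts in shGFP and 6.39% to 7.63% in shVCAN. KRT8, KRT18, KRT19, EPCAM, CD44 and VIM, which PC-3 cells express, had counts in every tumour, and the androgen-driven genes KLK2 and KLK3 were listed at 0. CD44 rose (log2 fold change 0.47), KRT8 (−0.19), KRT18 (−0.54) and EPCAM (−0.29) fell, and KRT19 and VIM were not called. The deposited table does not tell human from mouse reads, and the sources used here do not say whether mouse reads were removed. In bulk tumours, fewer cells of a type and less RNA per cell cannot be told apart.

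Of the 9 members, 7 passed the filter on low counts, 3 fell and none rose, and 2 were listed at 0 in every tumour. That is 3 of 7 tested, against 40.3% of all tested genes called in either direction and 21.1% called lower, so the number of calls did not set the members apart. C5AR2 fell 7.89-fold, whereas CD55 fell by 1.21-fold and C1S by 1.42-fold. C3, CD46, CD59 and SERPING1 were not called. The median log2 fold change of the 7 was −0.26, beside 0.0014 over all tested genes. The tumours of the groups did not overlap in C5AR2, CD55 and C1S, all lower in shVCAN. The same held for 48.7% of all tested genes in either direction and for 24.8% with shVCAN lower.

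**Figure D1:**
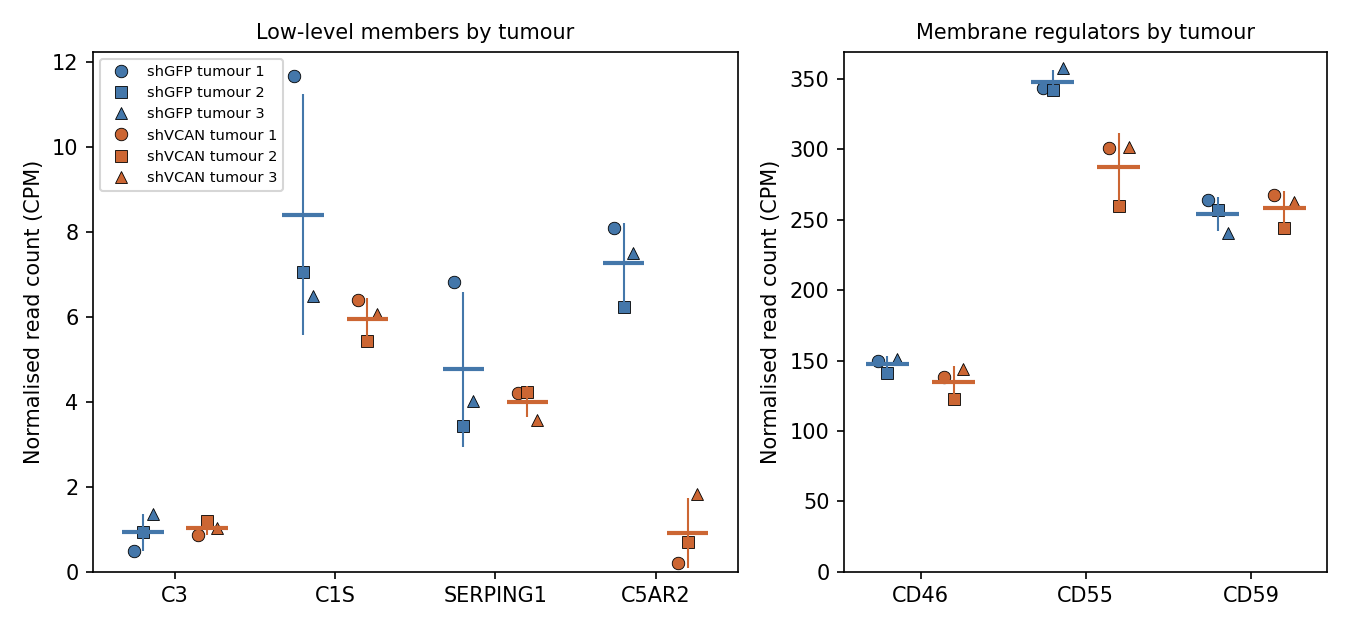
Normalised read count (CPM, linear axes from 0) of the 7 members with counts in each of the 6 tumours. Points are tumours, horizontal bars group means and vertical bars the SD (n = 3). C5AR2 lies between 6.23 and 8.08 CPM in shGFP and between 0.218 and 1.82 CPM in shVCAN, and shGFP tumour 1 is the highest point for C1S and SERPING1.

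C5AR2 encodes the second receptor for C5a, which signals without the usual G-protein coupling of C5AR1. The gene (ENSG00000134830.6) lies on chromosome 19 from 47332147 to 47347327 (GRCh38), and none of its exonic bases is annotated to another gene. The shGFP tumours 1, 2 and 3 had 97, 67 and 82 counts, that is 8.08, 6.23 and 7.49 CPM. The shVCAN tumours had 3, 10 and 25 counts, that is 0.218, 0.706 and 1.82 CPM. Every shVCAN tumour was thus far below every shGFP tumour, and the shVCAN tumours differed from each other by more than the shGFP tumours did in relation to their mean (coefficient of variation 89.9% against 13.03%). The level fell from 7.26 ± 0.947 to 0.916 ± 0.824 CPM (log2 fold change −2.98, SE 0.35, edgeR adjusted p = 4.01e-08). Falls of at least 2-fold were called in 2.68% of all tested genes. An exact two-sided permutation test gave p = 0.1, the lowest value this design can reach. Without shVCAN tumour 3, which had the most C5AR2 counts of its group, the log2 fold change was −3.94 (edgeR adjusted p = 2.91e-09), and without shVCAN tumour 1, which had the fewest, it was −2.52 (adjusted p = 6.85e-07).

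The neighbouring gene C5AR1, the main C5a receptor, lies just upstream on the same strand (chromosome 19, 47290023 to 47322066). It had 13, 10 and 18 counts in shGFP and 28, 11 and 12 in shVCAN, with overlapping groups at 1.22 ± 0.376 and 1.23 ± 0.698 CPM (log2 fold change 0.011, SE 0.461, edgeR adjusted p = 0.988). Per kilobase of exon, the level of C5AR2 was 3.24, 2.91 and 1.98 times that of C5AR1 in the shGFP tumours and 0.0465, 0.394 and 0.904 times in the shVCAN tumours. By this measure, C5AR2 was the higher of the 2 receptors in all 3 shGFP tumours and the lower in all 3 shVCAN tumours (log2 difference −3.38, exact permutation p = 0.1, and p = 0.133 adjusted over 4 ratios). By counts, C5AR2 was also below C5AR1 in shVCAN tumours 1 (3 against 28) and 2 (10 against 11). In shVCAN tumour 3 it was above C5AR1 (25 against 12). The order in that tumour thus came from the exonic lengths, 6802 bases for C5AR2 and 2951 for C5AR1. Both receptors rest on few reads, so these ratios carry a large counting error.

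The membrane regulators were the abundant members. CD55, also called decay-accelerating factor, breaks up the enzymes that cleave C3 and C5. It had 343.4, 342.2 and 357.6 CPM in the shGFP tumours and 300.8, 259.9 and 301.6 CPM in the shVCAN tumours. All 3 shVCAN values lay below the shGFP values, with tumour 2 lowest. CD55 fell from 347.7 ± 8.55 to 287.4 ± 23.8 CPM (log2 fold change −0.27, SE 0.0539, edgeR adjusted p = 0.000124). With library size as the only scaling, which moves the median log2 fold change of all genes to 0.168, the value for CD55 was −0.11 and the call was lost (edgeR adjusted p = 0.12).

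CD46, the membrane cofactor for cleavage of C3b and C4b, had 149.9, 141.3 and 151.4 CPM in shGFP and 138.5, 122.4 and 143.7 CPM in shVCAN. The highest shVCAN tumour exceeded the lowest shGFP tumour, and CD46 was not called (log2 fold change −0.13, SE 0.0616, 95% interval −0.256 to −0.0042 before adjustment, edgeR adjusted p = 0.0939). It was called lower without shVCAN tumour 3 (adjusted p = 0.041) and with a correction for GC content and exonic length (adjusted p = 0.0161), and its sign turned with library size alone (0.036). CD59, a small lipid-anchored protein that blocks the membrane pore, had 263.8, 257.1 and 240.7 CPM in shGFP and 267.4, 244.1 and 262.6 CPM in shVCAN. These values were interleaved (log2 fold change 0.023, SE 0.0528, 95% interval −0.085 to 0.131, edgeR adjusted p = 0.763). CD59 was called higher with library size alone (0.19, adjusted p = 0.00626) and with that correction (0.16, adjusted p = 0.0064). It was not called with DESeq2 size factors (adjusted p = 0.733) or upper quartile factors (adjusted p = 0.367).

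Ratios between members within a tumour do not depend on the scaling of libraries. Per kilobase of exon, CD59 stood at 0.338, 0.335 and 0.298 of the sum of CD46 and CD55 in shGFP tumours 1, 2 and 3, and at 0.386, 0.406 and 0.375 in the shVCAN tumours. The ratio was higher in every shVCAN tumour than in every shGFP tumour (log2 difference 0.267, exact two-sided permutation p = 0.1, the smallest possible, and p = 0.133 adjusted over 4 ratios). CD55 was 3.38, 3.57 and 3.48 times CD46 in shGFP and 3.20, 3.13 and 3.09 times in shVCAN, again without overlap (log2 difference −0.15, exact permutation p = 0.1, and p = 0.133 adjusted over the 4). In each knockdown tumour, CD59 was thus higher relative to CD46 plus CD55, and CD55 lower relative to CD46. Both ratios contain CD55, which fell, so they are not independent of each other. CD59 was not set against CD46 alone. With 3 tumours per group the permutation test cannot give a p under 0.1, so it could not call either difference.

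**Figure D2:**
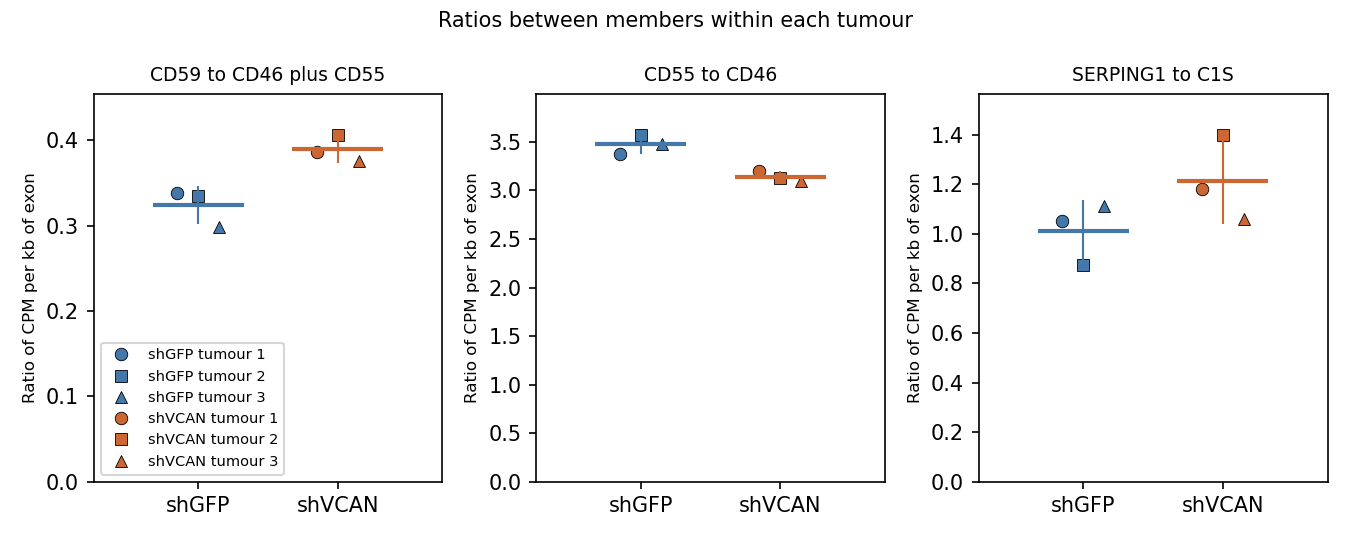
Ratio of per-length levels (CPM per kilobase of exon, linear axes from 0) between members within each tumour, with group means and SD (n = 3). CD59 to CD46 plus CD55 is 0.298 to 0.338 in shGFP and 0.375 to 0.406 in shVCAN, CD55 to CD46 is lower in every shVCAN tumour, and SERPING1 to C1S overlaps between the groups.

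By level per kilobase of exon, the order in shGFP was CD55 (58.85), CD59 (24.5), CD46 (16.9), SERPING1 (1.32), C1S (1.30), C5AR2 (1.07) and C3 (0.112 CPM per kilobase). With this length, SERPING1, C1S and C5AR2 did not differ from each other beyond their spread. In shVCAN the order was the same, with C5AR2 at 0.135 next to C3 at 0.124 CPM per kilobase, again within their spread. CD46, CD55 and CD59 together made up 96.4% ± 0.904 of the summed per-length level of the members in shGFP and 97.5% ± 0.157 in shVCAN. The share of CD55 was 56.5% ± 1.48 in shGFP and 53.2% ± 0.675 in shVCAN, and that of CD59 was 23.55% ± 1.14 and 27.3% ± 0.738. With the longest annotated transcript as the length, CD55 made up 67.4% and 64.3%, and the order of the 3 was the same. The order of the low members did depend on the length used. With the longest transcript, C1S (2.73) stood above SERPING1 (2.13) and C5AR2 (1.08 CPM per kilobase) in shGFP, and its share of the summed level was above that of C5AR2 in each shGFP tumour (1.17% to 2.10% against 0.527% to 0.663%). In shVCAN, C5AR2 (0.136) then stood below C3 (0.196 CPM per kilobase).

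Among the components, C1S, the protease that cleaves C4 and C2, had 140, 76 and 71 counts in shGFP tumours 1, 2 and 3 and 88, 77 and 83 in the shVCAN tumours. In CPM these were 11.7, 7.06 and 6.48 against 6.39, 5.43 and 6.06. The groups did not overlap, but shGFP tumour 3 (6.48 CPM) and shVCAN tumour 1 (6.39 CPM) were nearly equal. The mean fell from 8.40 ± 2.83 to 5.96 ± 0.484 CPM (log2 fold change −0.50, SE 0.205, edgeR adjusted p = 0.0499). The call was lost in 14 of 17 alternatives, and without shGFP tumour 1 the log2 fold change was −0.18 (edgeR adjusted p = 0.556). The direction was the same in all 17.

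SERPING1, which encodes the inhibitor of C1s, had 6.83, 3.44 and 4.02 CPM in shGFP and 4.21, 4.23 and 3.58 CPM in shVCAN. shGFP tumour 1 was again the highest, and the other tumours were interleaved (log2 fold change −0.26, SE 0.251, 95% interval −0.77 to 0.255, edgeR adjusted p = 0.443). Without that tumour the value was 0.11 (adjusted p = 0.792). Per kilobase of exon, SERPING1 stood at 1.05, 0.873 and 1.11 times C1S in shGFP and at 1.18, 1.40 and 1.06 times in shVCAN, with overlapping groups (log2 difference 0.26, exact two-sided permutation p = 0.2, and p = 0.2 adjusted over the 4 ratios).

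C3, the protein on which all complement routes converge, was close to the lower limit of what these libraries measure. It had 6, 10 and 15 counts in shGFP and 12, 17 and 14 in shVCAN, that is 0.933 ± 0.435 and 1.03 ± 0.164 CPM with overlapping groups. No difference was detectable at this depth (log2 fold change 0.16, SE 0.481, 95% interval −0.83 to 1.14, edgeR adjusted p = 0.828). Without shGFP tumour 1, which had the fewest C3 counts, the sign turned (−0.15, adjusted p = 0.857).

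C1R, the protease that activates C1s, and CFB, factor B of the alternative pathway, were listed at 0 in all 6 tumours. A count of 0 allows up to 3 counts, or 0.212 to 0.279 CPM depending on the library, by counting error only. A 0 in this table cannot be read as absence of the transcript, because ribosomal protein genes that every cell uses, such as RPL7A and RPS25, were also listed at 0. In GENCODE 29, 45.5% of the exonic bases of CFB are shared with C2 and a transcript that reads through both genes, and 11.4% of those of C1R with C1RL. C2 and C1RL were listed at 0 as well. Protein-coding genes that share over 90% of their exonic bases with another gene on the same strand were listed at 0 in 84.8% of cases (385 of 454), and those that share none in 15.9% (2634 of 16521). For genes that share over 10% to 50% the figure was 14.8%. The sources used here do not say how reads matching several genes were counted, and the part of this in the 0 values of C1R and CFB was not tested.

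The wider complement system was covered by 50 other genes. Of these, 15 were tested, 16 had too few counts for the test and 19 were listed at 0 in every tumour. Of the 15 tested, 5 rose and 3 fell, against 19.2% and 21.1% of all tested genes, and their median log2 fold change was 0.42. The subunits of C1q (C1QA, C1QB, C1QC), C4A, C4B, C6, C8A, C8B, C4BPA, VTN and the ficolins were among those at 0. Of the classical and lectin pathway list, 3 of 17 were tested, and C1QBP, a mostly mitochondrial protein that also binds C1q, rose from 118.0 ± 9.66 to 141.7 ± 6.42 CPM (log2 fold change 0.26, edgeR adjusted p = 0.00103). That call was lost with the correction for GC content and exonic length (0.12, adjusted p = 0.0809). The alternative and terminal pathway list had 1 tested gene of 9. This was C5, at 1.47 ± 0.596 and 2.57 ± 0.372 CPM, with groups that did not overlap but no call (edgeR adjusted p = 0.0797).

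**Figure D3:**
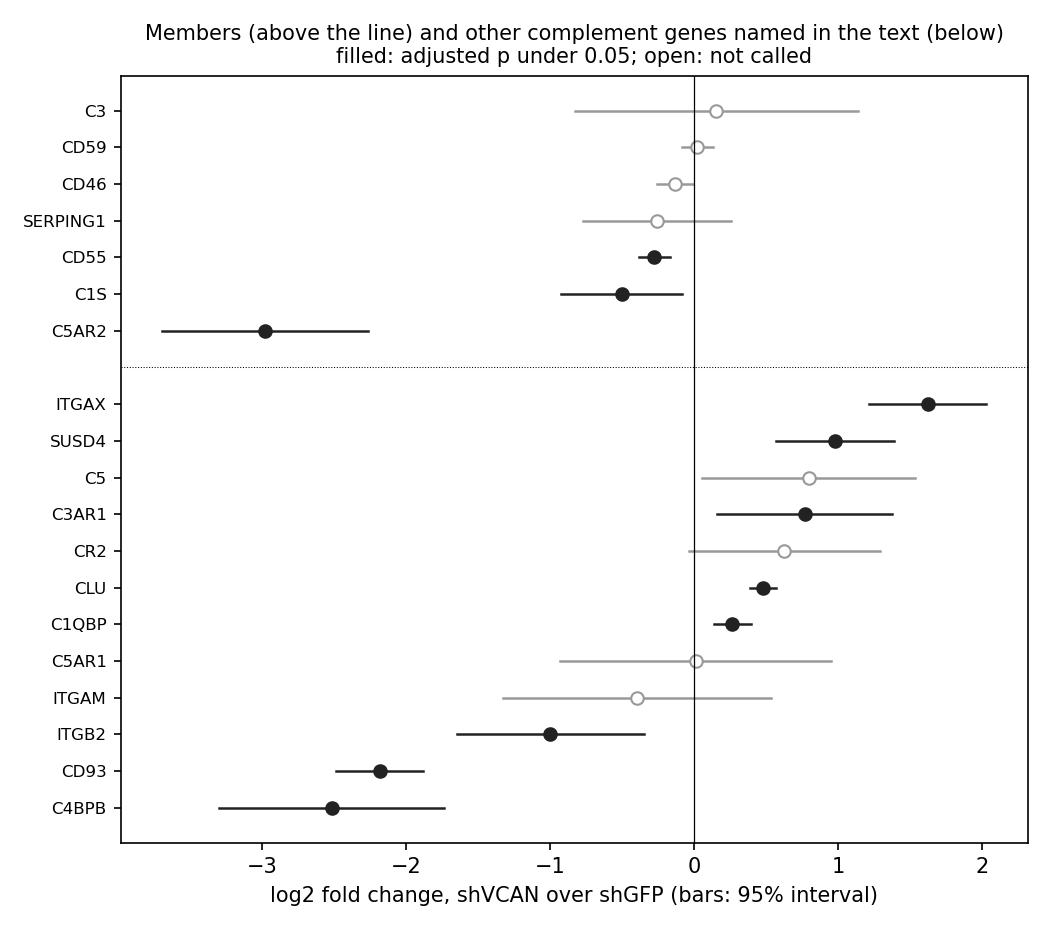
Fitted log2 fold change, shVCAN over shGFP, of the 7 tested members (above the dotted line) and of the other tested complement genes named in the text (below), with 95% intervals before adjustment. Filled points have an adjusted p under 0.05. C5AR2 (−2.98) lies far to the left of the other members, near CD93 (−2.19) and C4BPB (−2.52), and ITGAX (1.62) lies farthest to the right.

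Of 9 receptors, 7 were tested, 2 rose and 2 fell, counts close to the 19.2% higher and 21.1% lower of all tested genes. ITGAX, the alpha chain of complement receptor 4, rose from 3.50 ± 0.541 to 10.8 ± 1.83 CPM, while ITGB2, the beta chain it pairs with, fell from 3.91 ± 1.36 to 1.95 ± 0.638 CPM. The ITGAX values were 3.58, 4.00 and 2.92 CPM in shGFP and 9.73, 12.9 and 9.78 CPM in shVCAN (log2 fold change 1.62, SE 0.199, edgeR adjusted p = 8.59e-08). ITGB2 had 3.25, 5.48 and 3.01 CPM in shGFP and 2.61, 1.34 and 1.90 CPM in shVCAN (log2 fold change −0.999, SE 0.319, adjusted p = 0.0124), and it was not called when shGFP tumour 2 (−0.67, adjusted p = 0.156) or shVCAN tumour 2 (−0.79, adjusted p = 0.0572) was left out. ITGAM, the alpha chain of complement receptor 3, was not called (1.36 ± 0.309 and 1.03 ± 0.453 CPM). C3AR1, the receptor for C3a, rose from 2.00 ± 0.444 to 3.43 ± 0.28 CPM (log2 fold change 0.77, SE 0.299, adjusted p = 0.0394), a call lost in 9 of 17 alternatives, among them each of shGFP tumours 2 and 3 and shVCAN tumours 1, 2 and 3 left out (adjusted p = 0.0634 to 0.12). CD93, once described as a C1q receptor and found on endothelial and myeloid cells, fell from 24.5 ± 2.88 to 5.39 ± 0.75 CPM (log2 fold change −2.19, SE 0.147, adjusted p = 3.67e-13).

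Among 15 further regulators, 4 were tested, 2 rose and 1 fell, beside 19.2% and 21.1% of all tested genes, and with 4 genes these counts say little about the group. CLU encodes clusterin, a secreted chaperone that also keeps the membrane pore from inserting. It had 551.5, 584.2 and 587.1 CPM in shGFP and 820.0, 791.2 and 790.3 CPM in shVCAN, a clear step between the groups (log2 fold change 0.48, SE 0.044, edgeR adjusted p = 3.21e-10). SUSD4, a membrane protein reported to inhibit complement, rose from 4.41 ± 0.28 to 8.71 ± 1.84 CPM (log2 fold change 0.98, SE 0.201, adjusted p = 0.000215). C4BPB, the beta chain of the C4b-binding protein, had 3.50, 3.16 and 5.48 CPM in shGFP and 0.581, 0.494 and 1.02 CPM in shVCAN (log2 fold change −2.52, SE 0.383, adjusted p = 3.4e-06), while the gene of its alpha chain, C4BPA, was listed at 0.

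Several of these genes are neighbours. On chromosome 1, C4BPB (207088842 to 207099993), CD55 (207321376 to 207386804), CR2 (207454230 to 207489895) and CD46 (207752057 to 207795513) lie in the cluster of complement regulators. Their log2 fold changes were −2.52, −0.27, 0.63 and −0.13 in that order, and CR2 was not called (edgeR adjusted p = 0.127). C4BPB and CD55 were called, both lower, and CD46 was not called. On chromosome 12, C1S (6988259 to 7071032, plus strand) lies beside C1R (7080199 to 7092607, minus strand).

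Hepatocytes make most plasma complement, and macrophages, neutrophils, endothelial cells and fibroblasts carry or secrete several members, so markers of these cells are given beside the results. Of 16 macrophage markers, 7 were listed at 0 (CD163, AIF1, TYROBP, VSIG4 and the C1q genes), 4 were tested and 1 fell (CD14), and their summed level was 6.83 to 9.76 CPM in shGFP and 4.59 to 7.01 CPM in shVCAN. The neutrophil list had 1 tested gene of 9, S100A9, which rose (log2 fold change 0.42, edgeR adjusted p = 4.93e-05). Its sums of 64.3 to 82.9 CPM in shGFP and 88.6 to 103.1 CPM in shVCAN were nearly all S100A9. S100A8 had at most 5 counts in any tumour, and ELANE was listed at 0. Of 12 endothelial markers, 7 were tested, 5 fell and 1 rose, with sums of 174.1 to 182.8 CPM in shGFP and 114.5 to 128.8 CPM in shVCAN. VWF and CLDN5 had at most 8 counts in any tumour. Of 12 fibroblast and pericyte markers, 9 were tested, 5 fell (COL1A1, COL1A2, COL3A1, PDGFRA and FAP) and 1 rose (RGS5). Their sums were 838.2 to 945.4 and 398.2 to 492.8 CPM, most of it COL1A1 (means of 618.8 and 300.5 CPM). PDGFRB and DCN had at most 14 and 5 counts in any tumour, ACTA2 and LUM were not called, and THY1 was listed at 0. Hepatocyte markers summed to 13.3 to 17.65 and 14.04 to 17.2 CPM, with TTR at 0 and none of the 3 tested called. Skeletal muscle markers summed to 205.1 to 358.8 and 153.6 to 231.3 CPM (4 of 5 tested fell, TNNT3 at 0), and adipocyte markers to 19.4 to 27.7 and 28.96 to 31.7 CPM (1 of 3 tested rose and 1 fell, ADIPOQ and LEP at 0). The falls in the endothelial, fibroblast and skeletal muscle lists went with the same group as those of C5AR2, CD93, C1S and CD55. So did the falls of KRT8, KRT18, EPCAM and the mitochondrial share. The part of any of these in the complement results was not tested.

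**Figure D4:**
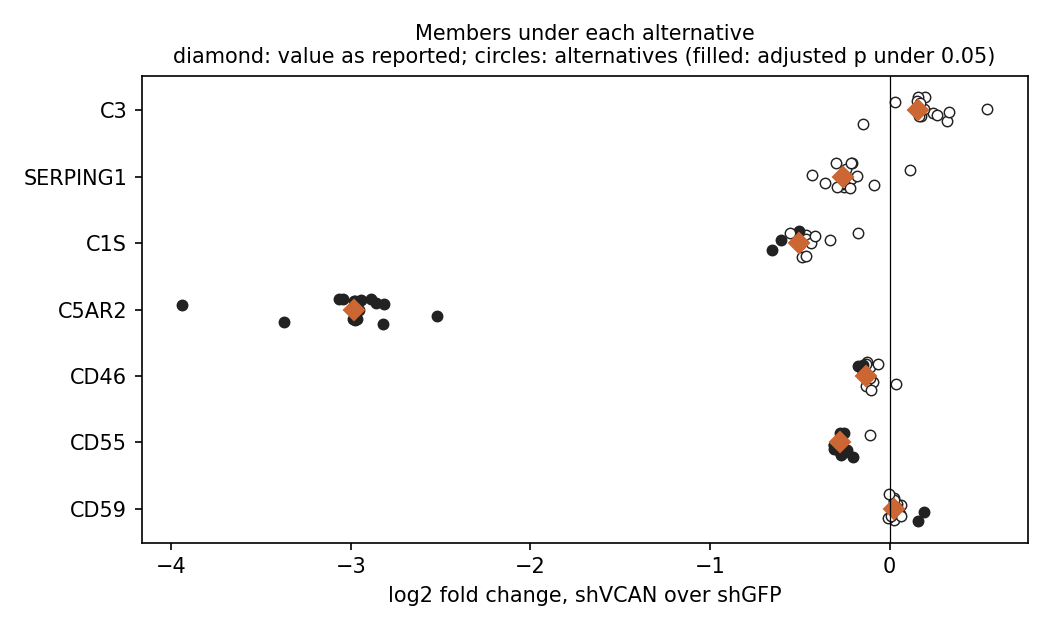
Fitted log2 fold change, shVCAN over shGFP, of the 7 tested members as reported (diamonds) and under each other way of processing (circles, filled where the adjusted p is under 0.05, spread vertically for visibility). C5AR2 stays between −3.94 and −2.52 with every circle filled, C1S stays below 0 with most circles open, and C3, SERPING1, CD46 and CD59 have circles on both sides of 0.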

How the data were processed

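RNA of 6 xenograft tumours was sequenced as paired reads of 150 bases, per the labels' protocols. The authors deposited raw read counts per gene under versioned Ensembl identifiers. The submitters' processing notes name Trim Galore, STAR, DESeq2 and hg38 without versions or roles. For the counting program, annotation and strand setting the sources used here give nothing. Genes were named through a symbol table and GENCODE 29, which also gave coordinates and lengths on GRCh38 (hg38).

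Groups were compared with edgeR 4.0.16 (quasi-likelihood test, TMM, filterByExpr, group as the only term) in R 4.3.3 over all 6 tumours, with Benjamini-Hochberg adjustment over 16254 genes. The test was run on simulated data first. The SE is the log2 fold change divided by the square root of F. Labels do not say whether the tumours came from separate mice, so p-values measure the spread between these samples. Antisense or overlapping genes can share reads.

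The members and lists were chosen with earlier results of these data known. Named are all members, VCAN, called genes of the other complement lists whose higher group mean reached 1 CPM, and markers a sentence needs; C5, C5AR1, CR2 and ITGAM were added after their values were seen. A planned ratio of C1S to C1R was not possible because C1R is at 0. Ratios of CD55 to CD46 and of C5AR2 to C5AR1 were added after seeing the data. Genes most like C3 across tumours are not given, since C3 had at most 17 counts. Alternatives were DESeq2 1.42.0 size factors and Wald test, limma 3.58.1 voom, other scalings and filters, an adjusted p under 0.01, an offset for length and GC content, the replicate number as a block, and each tumour left out.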

Additional observations from a re-analysis of the deposited data

How the results depend on the processing

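C5AR2 and VCAN kept their direction and call in all 17 alternatives, with log2 fold changes of −3.94 to −2.52 and −1.83 to −1.36. CD55 kept its call in 16. With library size alone, 1 member was called higher and 1 lower in place of 0 and 3, 8 complement genes higher in place of 5, and 5228 genes higher and 1890 lower in place of 3120 and 3425. CD46 then had a log2 fold change of 0.036. This scaling does not offset the smaller mitochondrial share in shVCAN, whose part in the shift was not tested. With the correction for GC content and exonic length, 1 member (CD59) and 3 complement genes were called higher. Leaving out each tumour gave 2 to 3 members called lower. Over those fits C3 ranged from −0.15 to 0.54, SERPING1 from −0.43 to 0.11 and CD59 from −0.0092 to 0.0623 (−0.0035 without shVCAN tumour 1), each turning sign, and the cause was not tested.

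The replicate numbers are shared by the groups but did not pair the tumours: the correlation of deviations from the group means between same-numbered tumours was −0.0271 to 0.0176, and not every tumour correlated best with its own number. With the replicate block, 2 members were called lower and 4 complement genes higher, C1S (adjusted p = 0.057) and C3AR1 (adjusted p = 0.0509) not being called. C3 and C5AR1 had few counts and wide intervals (−0.83 to 1.14 and −0.93 to 0.952 on the log2 scale), so smaller differences in them were not detectable.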
